A study of Mus musculus with 6 samples.

Results

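Protocadherins are cell adhesion proteins of the cadherin superfamily, and the count tables of mouse hypothalamus held 71 genes whose symbols begin with Pcdh, of 24513 genes in all. They were separated by symbol into 59 clustered genes (15 Pcdha, 22 Pcdhb and 22 Pcdhg) and 12 non-clustered genes. RNA came from whole hypothalamus of 3 wild-type (WT) and 3 NS-DADm mice, all C57BL/6 and 3 to 4 months old, with a separate library for each mouse. NS-DADm mice, as known for the line and not from the labels, carry point mutations in the domain of the corepressors NCOR1 and SMRT that activates the histone deacetylase HDAC3. The mutations are carried in the germline and so by all tissues, and the NS-DADm animals are called mutants below. Sex and library kit are not stated in the labels. The 10 hypothalamic marker genes chosen for a check of the tissue, among them Sim1, Otp, Avp and Hcrt, were all detected. Their summed level was 674 to 734 CPM (reads per 1e6 reads on genes) over the WT libraries and 699 to 823 CPM over the mutant ones. Fitted values were higher in mutants for 9 of the 10, with a median log2 fold change of 0.19. Of these genes 1, Trh, passed the test used below, with the higher values in mutants.

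The clustered genes lie in tandem arrays on chromosome 18. Each Pcdha and Pcdhg gene has a variable first exon with its own promoter, which is spliced to constant exons used by all genes of its array, whereas Pcdhb genes have a single coding exon each and no constant exons. Individual neurons choose different promoters through CTCF and cohesin, and the resulting mixture of proteins lets a neuron tell its own branches from those of other neurons. The C-type genes at the ends of the Pcdha and Pcdhg arrays are expressed more uniformly. Non-clustered protocadherins, mostly of the delta-1 and delta-2 subgroups, mark particular brain regions and act in axon growth, cell sorting and synapse formation.

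Because a read on an exon that belongs to more than 1 counted gene is left out of every gene row, the shared exons limit what was measured. In the GENCODE M21 annotation, Pcdha genes shared exon sequence with 12 or 13 other genes of the count tables and Pcdhg genes with 22. The shared part was 2860 to 3082 bases of a Pcdha gene and 2116 to 3157 bases of a Pcdhg gene. The exon length that remained a gene's own had a median of 46.5% in the 13 Pcdha genes with a GENCODE entry and 55.3% in the 22 Pcdhg genes. Of the Pcdhb genes, 20 of 22 shared no exon base with another counted gene, and of the non-clustered genes 10 of 12 did not. By these gene models, counts of Pcdha and Pcdhg genes describe the variable exons, and reads on the constant exons of both arrays were left out. The annotation used for the counts is not known, so this is inferred from GENCODE. Over the 6 libraries, 1.00 to 1.06% of entries were set aside as lying on more than 1 gene.

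**Figure D1:**
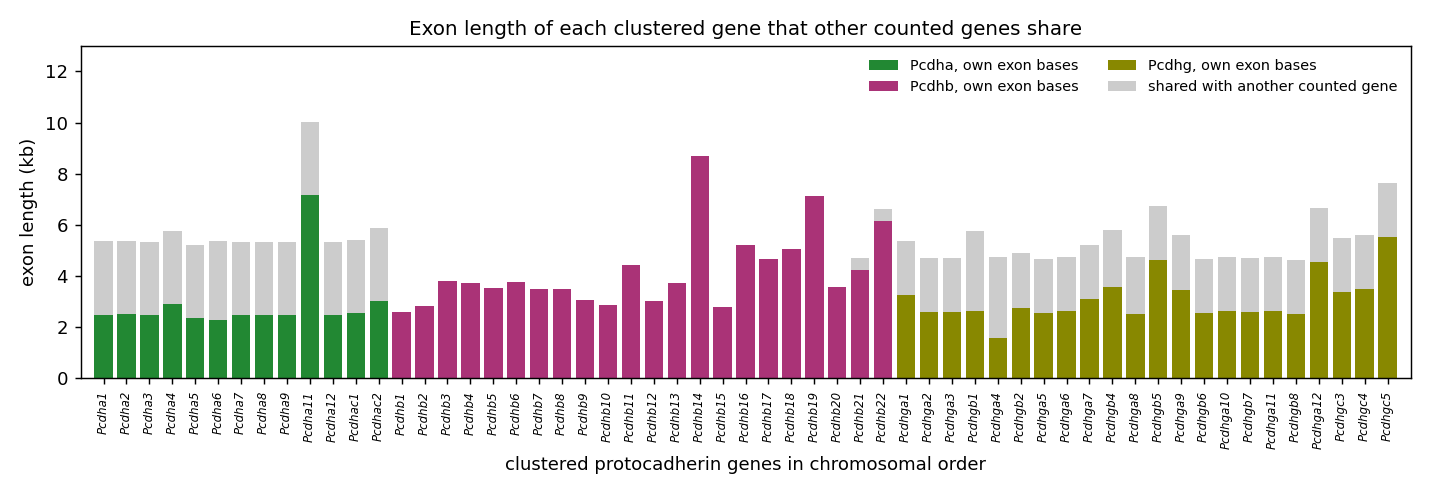
Exon length of each clustered gene with a GENCODE entry, in kilobases, in chromosomal order. Coloured bars are bases of that gene alone and grey bars are bases that another gene of the count tables also uses; grey makes up a large part of each Pcdha and Pcdhg bar and is absent from 20 of 22 Pcdhb bars.

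Near-identical sequence can also cost reads, because only uniquely placed reads entered the gene rows. Of all 50-base windows of a gene's longest transcript, the share found in no transcript of another gene had a median of 95.5% in Pcdhb genes and 100% in non-clustered genes. It was 38.4% in Pcdha and 48.7% in Pcdhg genes, whose constant exons are included in this figure. Pcdha4, Pcdha6 and Pcdha7 had 0 counts in all 6 libraries, although 42.6% or more of the exon length of each is shared with no other gene of the tables. A count of 0 allows up to 3 counts, or 0.109 to 0.123 CPM, per library, and this limit covers counting error only. Once every GENCODE gene model is included, also those the count tables do not list, the own shares are 7.00% in Pcdha4, 35.1% in Pcdha6 and 40.1% in Pcdha7. The part of this overlap in the zeros was not tested. Pcdha7-g, the fourth member that did not reach the test among Pcdha symbols, had 1 to 6 counts and no GENCODE entry. Levels of Pcdha10 and Pcdha11 are uncertain, because the GENCODE gene named Pcdha11 covers the start of the RefSeq gene Pcdha10.

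Protocadherin genes together took 0.175 to 0.196% of the reads on genes, which numbered 24.2 M to 27.6 M per library. No protocadherin gene passed the test between NS-DADm and WT hypothalamus (edgeR, Benjamini-Hochberg adjusted p under 0.05). This was 0 of the 66 tested members, beside 0.654% of all 15894 genes tested (0.573% lower and 0.0818% higher). DESeq2 and limma voom also called 0 members, beside 1.77% and 0.623% of all genes, and had 7 and 8 members at an unadjusted p under 0.05. At an unadjusted p under 0.05 edgeR had 10 members, 1 higher and 9 lower in mutants, beside 10.9% of all genes (4.4% higher and 6.46% lower). The libraries of the groups did not overlap in 10 members, again 1 higher and 9 lower, beside 16.8% of all genes (7.86% higher and 8.93% lower). Members with lower values thus exceeded the share over all genes in both counts, and members with higher values fell short of it. On simulated counts for the same comparison the fit recovered 24.8% of genes with a 1.2-fold difference, 53.2% at 1.3-fold and 85.2% at 1.5-fold. These genes were drawn from all genes above 1 CPM, so the rates are not those of protocadherin genes. The median SE of the log2 fold change was 0.13 in clustered and 0.06 in non-clustered members, beside 0.08 over all genes. In bulk tissue, fewer cells of a type and less RNA per cell cannot be told apart.

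Markers of the thalamus, which lies next to the hypothalamus, differed between the groups. The libraries of the groups were apart for each of 12 thalamus markers, with the mutants lower and 5 genes past the threshold, with a median log2 fold change of -1.15. Their summed level was 557 to 884 CPM in WT against 344 to 382 CPM in mutants, and all 12 were at their highest in WT 1. The 6 neuron markers summed to 3554 to 3745 CPM in WT against 3344 to 3360 CPM in mutants, and the 6 markers of mature oligodendrocytes to 4562 to 4914 and 3887 to 4459 CPM, without overlap in either list. Microglia markers were apart as well, at 176 to 184 and 156 to 167 CPM. The 8 anterior pituitary markers summed to 199 to 2015 CPM in mutants, highest in NS-DADm 2, against 39.3 to 111 CPM in WT. No tested gene of the neuron, microglia or pituitary lists passed the threshold. These levels moved with the groups, and their part in the protocadherin values was not tested. Sums of astrocyte, oligodendrocyte precursor, striatum and choroid plexus markers overlapped between the groups.

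The Pcdha array showed lower summed counts in NS-DADm mice by a small margin. Its 15 genes summed to 61.2, 59.5 and 61.1 CPM in WT 1, 2 and 3 against 54.1, 57.4 and 56.8 CPM in NS-DADm 1, 2 and 3. All 3 NS-DADm libraries lay below the lowest WT library, and the mean difference of -0.11 on the log2 scale was a 7.49% lower level. The exact two-sided permutation test gave p = 0.10, the smallest that 3 against 3 libraries allow, and 0.40 after adjustment over the 4 sums tested. The sums held 1323 to 1675 counts per library, with a counting error of at most 2.75%. Without the C-type genes, the other 13 Pcdha genes summed to 29.8 ± 1.3 CPM in WT against 25.2 ± 1.7 CPM in mutants (mean ± SD, n = 3 each), again without overlap. This sum is a part of the Pcdha sum, was not among the 4 sums tested and has no adjusted p-value.

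**Figure D2:**
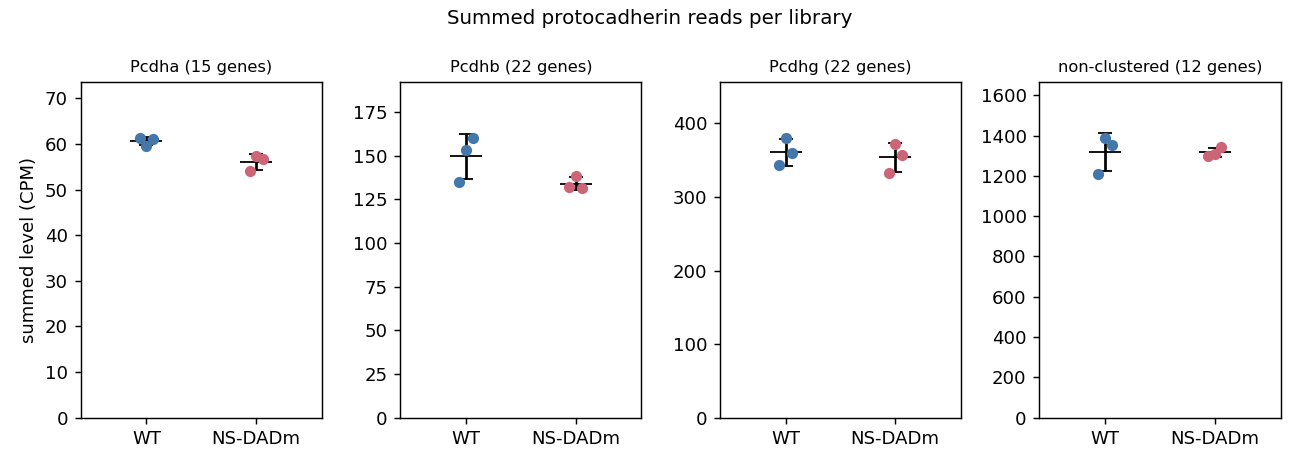
Summed level (CPM) of the Pcdha, Pcdhb, Pcdhg and non-clustered genes in each library, with the mean and SD of each group (n = 3). The Pcdha sums of the groups do not overlap, at 59.5 to 61.2 CPM in WT against 54.1 to 57.4 CPM in mutants, and the other sums do.

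Within the Pcdha array, 8 of 11 tested genes had fitted values below 0, and the median log2 fold change was -0.13 beside 0.004 over all genes. Pcdha3 measured 4.06, 3.91 and 4.32 CPM in WT 1, 2 and 3 against 2.29, 2.53 and 3.39 CPM in NS-DADm 1, 2 and 3. Every NS-DADm library was below every WT library (log2 fold change -0.58 ± 0.16 SE; edgeR, adjusted p = 0.15), on 56 to 114 counts. The groups were apart in 2 of the 11 tested Pcdha genes in all, each lower, beside 8.93% of all genes that were apart and lower. Pcdha9 measured 7.42, 5.85 and 7.88 CPM in WT against 4.79, 5.76 and 6.09 CPM in mutants, which overlap (log2 -0.34; edgeR, adjusted p = 0.37). Pcdha12 was nearly level, at 4.41 ± 0.45 and 4.21 ± 0.29 CPM (mean ± SD, n = 3 each). The remaining tested Pcdha genes outside the C-type had 12 to 105 counts in a library, so single values there are imprecise.

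The C-type genes of the Pcdha array did not differ by more than the spread between libraries. Pcdhac2, which is needed for the even spacing of serotonergic axons, measured 29.9, 27.7 and 27.6 CPM in WT against 28.8, 28.6 and 27.6 CPM in mutants. Its log2 fold change was -0.005 with a 95% interval of -0.14 to 0.13, and it crossed 0 with other scaling factors. Pcdhac1 measured 2.44 ± 0.42 and 2.55 ± 0.47 CPM (mean ± SD, n = 3 each), and its log2 interval of -0.34 to 0.47 is wide because each library held only 49 to 79 counts. Per kilobase of own exon, Pcdhac2 stood at 9.39 CPM in WT mice, the highest of the 9 tested Pcdha genes with a usable length. Pcdha8 was the lowest of these at 0.324 CPM per kilobase.

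Of the 4 sets of genes, Pcdhb was the one with the greatest share of fitted values in 1 direction. Of the 22 genes, all of which were tested, 21 had a fitted log2 fold change below 0, beside 48.4% of all genes, and the median was -0.14. None passed the threshold, and 3 had an unadjusted p under 0.05, all lower, beside 6.46% lower over all genes. The genes share libraries and a chromosomal array, so they are not independent observations of the difference. The summed level was 135, 153 and 160 CPM in WT 1, 2 and 3 against 132, 138 and 131 CPM in NS-DADm 1, 2 and 3. The groups overlap because WT 1 lay among the NS-DADm libraries. WT 3 held the highest value of 15 of the 22 genes, beside 17.2% of all genes. The difference of the sums was -0.16 on the log2 scale, 10.3% lower (exact two-sided permutation p = 0.20, adjusted p = 0.40 over the 4 sums). Single libraries moved this difference: it was -0.23 without WT 1, where the groups no longer overlapped, -0.14 without WT 2 and -0.11 without WT 3. The number of genes fitted below 0 was 19 of 22 without WT 2 or without NS-DADm 3 and 20 without WT 3.

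**Figure D3:**
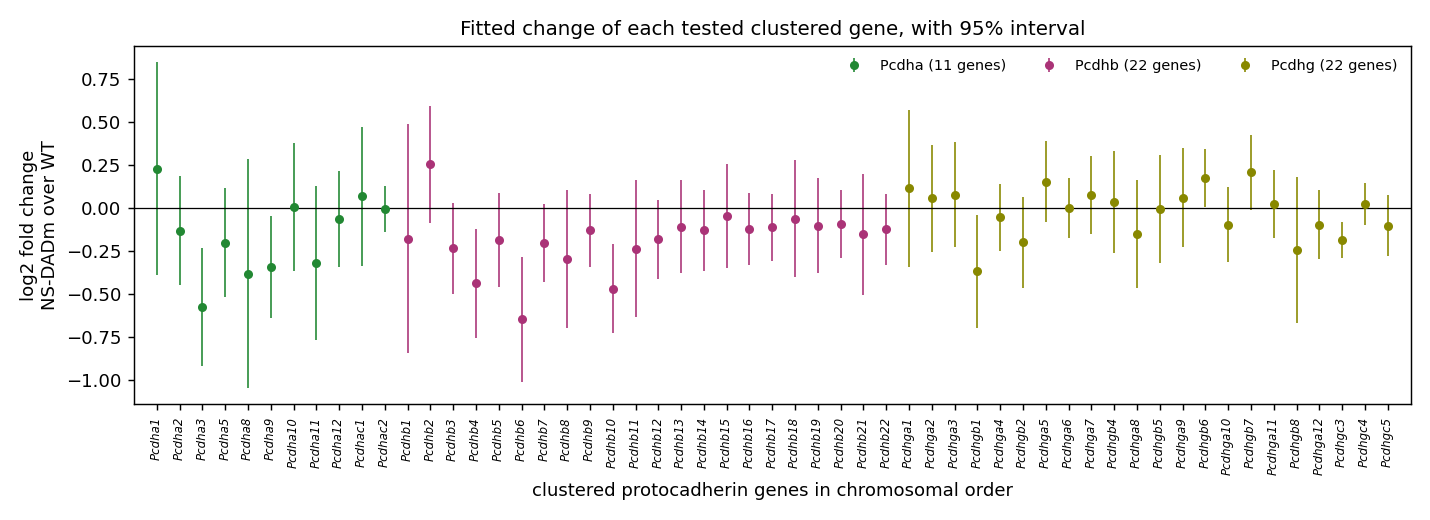
Fitted log2 fold change of NS-DADm over WT for each of the 55 tested clustered genes in chromosomal order, with its 95% interval. The points of 21 of 22 Pcdhb genes lie below 0, those of the Pcdhg genes lie on both sides, and no gene passed the threshold after adjustment.

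The Pcdhb genes with the smallest p-values were Pcdhb10, Pcdhb6 and Pcdhb4, each encoding a single-exon adhesion protein without the constant cytoplasmic end of the other arrays. Pcdhb10 (chromosome 18, 37411664 to 37414514, plus strand) measured 5.56, 6.18 and 6.67 CPM in WT against 4.42, 4.67 and 4.18 CPM in mutants (log2 -0.47 ± 0.12 SE; edgeR, adjusted p = 0.11). Pcdhb6 measured 3.66, 2.85 and 3.79 CPM in WT against 2.54, 2.06 and 1.98 CPM in mutants (log2 -0.65 ± 0.17 SE; edgeR, adjusted p = 0.12). Pcdhb4 measured 2.93, 3.03 and 3.03 CPM against 2.13, 2.14 and 2.36 CPM (log2 -0.44 ± 0.15 SE; edgeR, adjusted p = 0.26). The groups were apart in all 3 genes, and all NS-DADm libraries were the lower ones. They were apart in 5 Pcdhb genes in all, each lower, beside 8.93% of all genes that were apart and lower. Calls depended on single libraries. Pcdhb10 passed the threshold without WT 1 (log2 -0.53; edgeR, adjusted p = 0.035) and Pcdhb6 without WT 2 (log2 -0.77; edgeR, adjusted p = 0.044). Those fits called 1.95% and 1.64% of all genes, against 0.654% with all libraries.

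The most abundant Pcdhb genes differed less. Pcdhb17 measured 15.9 ± 1.6 CPM in WT against 14.6 ± 0.81 CPM in mutants, Pcdhb9 12.5 ± 1.4 and 11.4 ± 0.64 CPM, and Pcdhb20 10.9 ± 0.84 and 10.2 ± 0.36 CPM (mean ± SD, n = 3 each). The groups overlap for each of these genes. Pcdhb2 alone had a fitted value above 0 (log2 0.25; edgeR, adjusted p = 0.63) and was named after its value was seen. Across the 22 genes, the fitted log2 fold change had a Spearman correlation of 0.50 with position along the array and 0.14 with the level per kilobase, a description of genes that share libraries and whose low members have few reads. Levels per kilobase of own exon in WT mice ran from 0.262 CPM in Pcdhb1 to 4.10 CPM in Pcdhb9.

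With the thalamus marker mean as a covariate, 21 of 22 Pcdhb genes again had fitted values below 0, with a median of -0.34, and 0 members were called, beside 0.0503% of all genes. The median with this covariate was -0.32 in clustered and -0.24 in non-clustered genes, so lower values there were not particular to Pcdhb. The fitted log2 value of Pcdhb6 shrank from -0.65 to -0.0974 in that fit, while those of Pcdhb10 and Pcdhb4 were -0.67 and -0.47. The marker mean moved with the genotype, since every mutant library was below every WT library in it. As a ratio within each library, Pcdhb reads over Pcdhg reads were 0.414 ± 0.027 in WT and 0.379 ± 0.017 in mutants (mean ± SD, n = 3 each). This ratio was chosen after the sums were seen, the groups overlap, and the exact two-sided permutation test gave p = 0.20 and 0.30 after adjustment over 3 ratios. A difference in response between the Pcdhb and Pcdhg arrays was therefore not shown.

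Pcdhg genes showed no shared direction. Their 22 genes summed to 343, 380 and 360 CPM in WT 1, 2 and 3 against 332, 372 and 357 CPM in NS-DADm 1, 2 and 3 (exact two-sided permutation p = 0.70). The libraries of the groups are interleaved, and the difference of -0.03 on the log2 scale was smaller than the within-group SD of 0.08. Of the genes, 11 had fitted values above 0 and 11 below. The 12 Pcdhga genes summed to 164 ± 13 and 165 ± 15 CPM and the 7 Pcdhgb genes to 59.6 ± 4.4 and 60.7 ± 5.0 CPM in WT and mutant mice (mean ± SD, n = 3 each).

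Among the C-type Pcdhg genes, Pcdhgc3 had the smallest p-value; its difference from the other C-type genes was not tested. Pcdhgc3, whose protein binds the WNT pathway scaffold Axin1 and promotes branching of dendrites (chromosome 18, 37806364 to 37841873, plus strand), measured 70.9, 70.3 and 69.4 CPM in WT 1, 2 and 3. It measured 61.4, 61.7 and 61.8 CPM in NS-DADm 1, 2 and 3. The libraries of each group lay within 2 CPM of each other and the groups did not overlap (log2 fold change -0.19 ± 0.05 SE, 95% interval -0.29 to -0.08; edgeR, adjusted p = 0.12), on 1501 to 1940 counts. It was short of the threshold in every alternative run. Without Pcdhgc3 the difference of the Pcdhg sum turned to 0.006 on the log2 scale.

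Pcdhgc4, the member needed for survival of inhibitory interneurons, measured 48.2, 50.1 and 45.4 CPM in WT against 47.7, 48.7 and 49.4 CPM in mutants. Its log2 interval was -0.10 to 0.14, and the groups overlap. Pcdhgc5, which is found at GABA synapses, measured 19.1, 20.6 and 17.7 CPM in WT against 19.1, 17.5 and 16.8 CPM in mutants, with overlap between the groups (log2 -0.10; edgeR, adjusted p = 0.72). The 5 C-type genes of both arrays together held 28.0 to 31.7% of all reads on clustered genes. Their sum was 168 ± 4.8 CPM in WT against 159 ± 0.46 CPM in mutants, without overlap (exact two-sided permutation p = 0.10, the smallest possible), and Pcdhgc3 made up the greatest part of it. This sum was added after the values were seen.

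**Figure D4:**
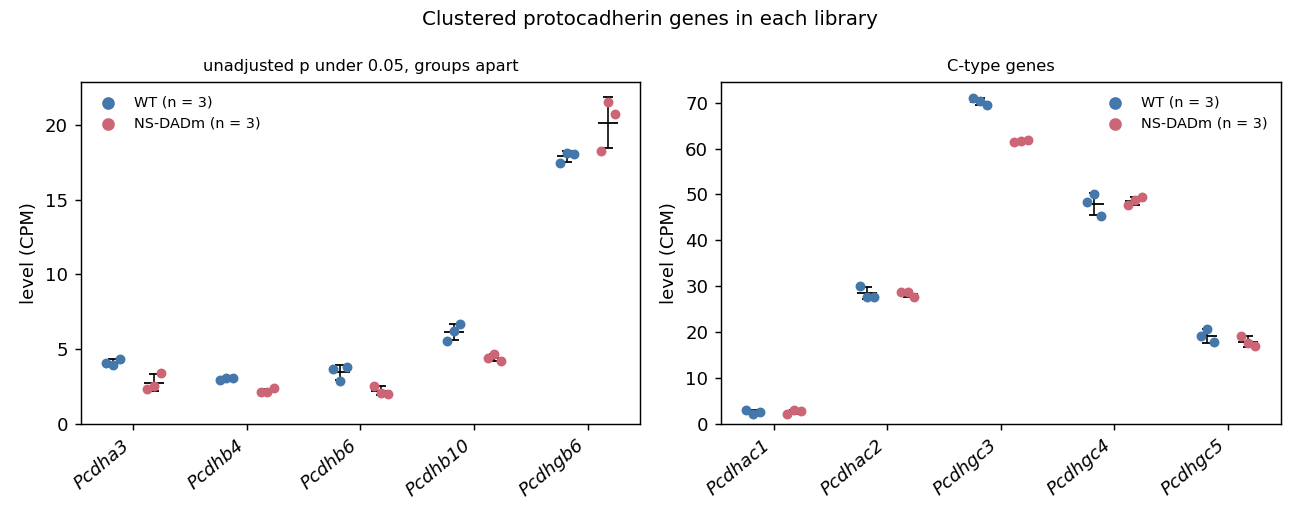
Level (CPM) in each library, with mean and SD (n = 3 per group), of 5 clustered genes (left) and of the C-type genes (right). Those on the left are the clustered genes outside the C-type with an unadjusted p under 0.05 and groups that do not overlap. Among the C-type genes, Pcdhgc3 meets the same rule. Pcdhgc3 lies at 69.4 to 70.9 CPM in WT against 61.4 to 61.8 CPM in mutants, while Pcdhgc4 and Pcdhac2 overlap.

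Pcdhgb6 was the single member with an unadjusted p under 0.05 and higher values in NS-DADm mice. It measured 17.5, 18.2 and 18.1 CPM in WT against 18.2, 21.5 and 20.7 CPM in mutants. The groups were barely apart, with NS-DADm 1 next to the WT libraries (log2 0.17 ± 0.08 SE; edgeR, adjusted p = 0.45). Pcdhga7, the most abundant gene of the Pcdhga type, measured 24.3 ± 3.6 and 25.5 ± 2.0 CPM (mean ± SD, n = 3 each). Per kilobase of own exon, levels of Pcdhg genes in WT mice ran from 0.950 CPM in Pcdhgb8, which RefSeq lists as a transcribed pseudogene, to 20.8 CPM in Pcdhgc3. The level of Pcdhgc3 per kilobase depends on the annotation, since its own exon bases number 3380 against the genes of the count tables and 1821 against all GENCODE models. The median was 4.35 CPM per kilobase in Pcdhg, 1.52 in Pcdhb and 1.45 in the 9 tested Pcdha genes with a usable length.

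Non-clustered genes held most protocadherin reads, and the means of their sums were nearly equal in both groups. The 12 genes summed to 1211, 1387 and 1354 CPM in WT 1, 2 and 3 against 1301, 1309 and 1342 CPM in NS-DADm 1, 2 and 3 (exact two-sided permutation p = 1.0). All 3 NS-DADm libraries lay between WT 1 and WT 3. Without WT 1 the groups no longer overlapped, with the mutants lower, and the difference of the sums was -0.06 on the log2 scale. WT 1 was the lowest library for 6 of the 11 tested genes, beside 25.2% of all genes. The median log2 fold change was 0.05, with 7 fitted above 0 and 4 below. It was -0.0098 without WT 1 and 0.0083 without NS-DADm 3, so it has no stable direction.

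**Figure D5:**
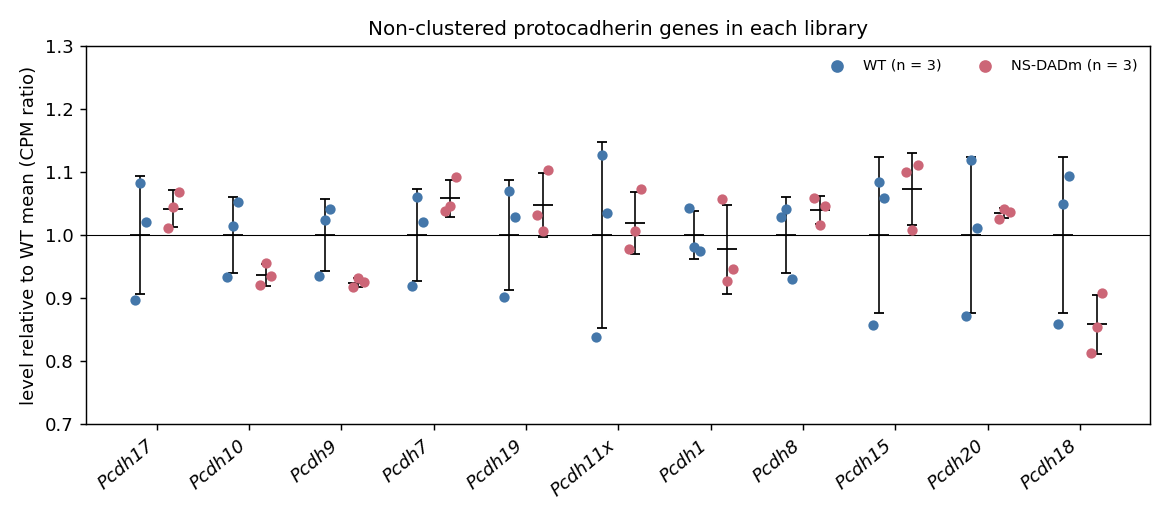
Level of each tested non-clustered gene in each library, relative to the WT mean (CPM ratio), in order of abundance, with the mean and SD of each group (n = 3). WT 1 is the lowest point for 6 of 11 genes, and the groups are apart for Pcdh9 alone.

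Of the delta-1 subgroup, whose long cytoplasmic ends carry several conserved motifs, Pcdh9 was the gene with groups apart. It lies on chromosome 14 (93013410 to 93890679, minus strand) and measured 165, 181 and 184 CPM in WT against 162, 164 and 163 CPM in mutants. WT 1 was less than 1 CPM above NS-DADm 2, and the difference did not pass (log2 -0.11 ± 0.05 SE, 95% interval -0.22 to -0.004; edgeR, adjusted p = 0.44). Per kilobase of exon, Pcdh9 stood at 26.0 CPM in WT against 24.1 CPM in mutants. Pcdh7, whose cytoplasmic end binds protein phosphatase 1 alpha, measured 136, 156 and 150 CPM in WT against 153, 154 and 161 CPM in mutants (log2 interval -0.04 to 0.20). The groups overlap, with WT 1 below the rest. Pcdh11x, an X-linked gene, measured 72.6 ± 11 and 74.0 ± 3.6 CPM, and Pcdh1, best known from airway epithelium, 67.8 ± 2.5 and 66.3 ± 4.8 CPM (mean ± SD, n = 3 each).

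Delta-2 members included the 2 protocadherins with the most reads. Pcdh17, which acts in axon extension and in assembly of presynaptic sites (chromosome 14, 84443563 to 84539002, plus strand), measured 263, 317 and 299 CPM in WT against 297, 307 and 314 CPM in mutants. Its log2 interval was -0.08 to 0.20, and WT 1 and WT 2 enclosed all NS-DADm libraries. Pcdh10, which guides axons and promotes elimination of synapses (chromosome 3, 45378398 to 45435623, plus strand), measured 253, 275 and 285 CPM in WT against 250, 259 and 253 CPM in mutants. These overlap at WT 1 (log2 -0.09 ± 0.05 SE; edgeR, adjusted p = 0.57). Pcdh19, an X-linked gene mutated in an epilepsy that affects mainly females, measured 118 ± 10 and 124 ± 6.0 CPM, and Pcdh8, which is induced by neuronal activity and lowers surface N-cadherin, 52.6 ± 3.2 and 54.7 ± 1.2 CPM (mean ± SD, n = 3 each).

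Pcdh18 was the delta-2 gene with the lowest fitted value. It lies on chromosome 3 (49743296 to 49757325, minus strand) and measured 20.3, 24.7 and 25.8 CPM in WT against 19.2, 20.2 and 21.4 CPM in mutants. WT 1 lay among the NS-DADm libraries (log2 -0.22 ± 0.09 SE; edgeR, adjusted p = 0.40). Without WT 1 the gene passed the threshold (log2 -0.31; edgeR, adjusted p = 0.027), in a fit that called 1.95% of all genes.

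Of the other non-clustered genes, Pcdh15, part of the tip link of inner ear hair cells, measured 51.7 ± 6.4 and 55.4 ± 2.9 CPM and Pcdh20 42.1 ± 5.2 and 43.6 ± 0.35 CPM (mean ± SD, n = 3 each), with overlap in both. Pcdh12, a protocadherin of blood vessel endothelium, was too low for the test, at 13, 7 and 12 counts for WT 1, 2 and 3 against 3, 6 and 7 counts for NS-DADm 1, 2 and 3. The groups overlap in CPM at WT 2 and NS-DADm 3. Markers of vessel cells summed to 94.9 to 120 CPM in WT against 90.1 to 93.3 CPM in mutants, and their part in the Pcdh12 values was not tested. Ordered by level per kilobase of own exon in WT mice, the non-clustered genes ran Pcdh9, Pcdh17, Pcdh7, Pcdh10, Pcdh8, Pcdh19, Pcdh1, Pcdh20, Pcdh11x, Pcdh18, Pcdh15 and Pcdh12. Neighbours such as Pcdh7 and Pcdh10 (17.6 and 17.2 CPM per kilobase) and Pcdh1 and Pcdh20 (7.71 and 7.66) differed by less than their spread. The order also depends on the length used, which joins the exons of all transcripts of a gene. For Pcdh10 it was 15734 bases, while the longest transcript has 8234, so the order is not one of expression alone.

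No gene passed the threshold in the lists of genes that act with or resemble protocadherins. Of 14 tested regulators of the clustered promoters, such as CTCF, cohesin subunits, Smchd1, Setdb1 and DNA methyltransferases, 0 passed the threshold, 0 had an unadjusted p under 0.05, and the median log2 fold change was 0.002. Ctcf measured 72.4 ± 4.3 and 67.8 ± 2.1 CPM, and Setdb1, a histone methyltransferase that keeps the clusters in their normal chromatin state, 54.0 ± 2.6 and 58.8 ± 4.1 CPM (mean ± SD, n = 3 each). Of 16 tested partners of the cytoplasmic ends, 0 passed and 3 had an unadjusted p under 0.05, all lower, beside 6.46% lower over all genes. Fitted values were below 0 in 13 of the 16, with a median of -0.04, and 4 were apart and lower, beside 8.93% of all genes. The 3 genes were Marcks, an actin-binding substrate of protein kinase C, with 277 ± 17 and 237 ± 14 CPM (edgeR, adjusted p = 0.11), the WAVE complex gene Wasf1 with 85.7 ± 2.6 and 77.3 ± 2.5 CPM (0.28) and the kinase gene Ptk2b with 56.3 ± 13 and 38.0 ± 5.8 CPM (0.40). Of 36 tested genes from the rest of the cadherin superfamily, 0 passed and the median was 0.007. At an unadjusted p under 0.05 there were 3 higher and 6 lower, beside 4.4% and 6.46% of all genes, so both directions exceeded those shares. Fitted values were below 0 in 47.2% of the 36 genes, beside 48.4% of all genes. The smallest p-values there were those of Dsg1c, Cdh19 and Cdh8, with edgeR adjusted p of 0.096, 0.18 and 0.31.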

How the data were processed

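RNA from the hypothalamus of 3 WT and 3 NS-DADm mice was sequenced, with 1 library per mouse. Per the submitters' processing notes, the authors aligned reads with TopHat2 2.0.9 to mm10 and deposited raw HTSeq counts per gene symbol. For the annotation, HTSeq version and strand setting no source was at hand, so overlapping and antisense genes cannot be told apart. The 5 rows of unassigned reads were left out of library sizes. They held, as shares of all entries, 13.3 to 14.8% outside genes, 1.00 to 1.06% on more than 1 gene and 14.3 to 16.5% not uniquely aligned.

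Counts were filtered with filterByExpr, scaled by TMM and tested with edgeR 4.0.16 (quasi-likelihood, robust, no covariate) in R 4.3.3 over 15894 genes, with Benjamini-Hochberg adjustment and a threshold of 0.05. SE and 95% intervals came from the F statistic and its degrees of freedom. CPM used the TMM-scaled library sizes. Sums over genes were compared by exact permutation (scipy 1.17.1). Pairs of replicates differed by 3.30 to 9.98 times the counting noise (chi-square per degree of freedom), so all were kept as separate samples. The fit was tested on simulated data in 5 runs with 200 changed genes each.

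Exon overlap was computed from GENCODE M21 (the mm10 assembly, GRCm38), on either strand, against the genes of the count tables; 69 of 71 symbols matched there and 70 in RefSeq. Genes named are all non-clustered genes, the C-type genes, the 3 most abundant of each array, and clustered genes with an unadjusted p under 0.05 and groups apart, beside up to 3 genes by smallest p from other lists. The members, lists and rules were chosen with earlier results of these data known. Alternatives were other scaling, filters, DESeq2 1.42.0, limma 3.58.1 voom, a replicate block, a thalamus marker covariate and leaving out each library. The restriction to genes of the count tables and the Pcdhb median were added after seeing the data.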

Additional observations from a re-analysis of the deposited data

How the results depend on the processing

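No member was called with other scaling factors, no count filter, a minimum of 1 CPM, DESeq2, limma voom or the thalamus marker covariate, and leaving out a library gave 0 to 2 members called lower and 0 called higher. The calls arose without WT 1 (Pcdh18 and Pcdhb10) and without WT 2 (Pcdhb6), whose fits called 312 and 262 genes in all, against 104 with all libraries and 5 to 106 without any other library. The cause was not tested. The replicate numbers are not said to mark a shared litter or day. Deviations of same-numbered libraries correlated at 0.13, 0.09 and -0.03, and those of differently numbered ones at -0.12 to 0.06. Not every library correlated best with its own number. With 3 libraries a group, these values cannot decide whether the numbers mark a shared litter or day. With the replicate block 0 members were called higher and 0 lower, the Pcdhb median was -0.14, and 409 genes were called in all.

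Of 405 alternative values for 27 tested genes, 375 kept direction and side of the threshold, 27 turned direction and 3 became calls. With the thalamus marker covariate the median turned to -0.24 for non-clustered genes and moved to -0.32 for clustered and -0.34 for Pcdhb genes. In that fit log2 values turned for Pcdh1 (0.13), Pcdh11x (-0.43), Pcdh15 (-0.18), Pcdh17 (-0.25), Pcdh19 (-0.16), Pcdh20 (-0.37), Pcdh7 (-0.13), Pcdha9 (0.0529), Pcdhac2 (0.11), Pcdhb20 (0.0123), Pcdhga7 (-0.49) and Pcdhgc4 (-0.0706), none called. Pcdhac2 was 0.0065 with upper-quartile factors and 0.0076 with totals alone. With 1 library left out, ranges that crossed 0 were -0.0925 to 0.0027 for Pcdh1, -0.0811 to 0.12 for Pcdh11x, -0.0098 to 0.12 for Pcdh17, -0.0375 to 0.14 for Pcdh20, -0.11 to 0.0243 for Pcdha12, -0.056 to 0.21 for Pcdhac1, -0.0249 to 0.0374 for Pcdhac2, -0.035 to 0.17 for Pcdhga7 and -0.0168 to 0.0548 for Pcdhgc4. The Pcdhg sum ran from -0.0668 to 0.015 and the non-clustered sum from -0.0573 to 0.0406, and without their most abundant member they were 0.0063 and -0.0157. The Pcdha and Pcdhb sums stayed below 0 in each alternative run for them. Genes under about 100 counts, most of the Pcdha genes among them, allow only large differences to be seen.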
